A study of Mus musculus with 5 samples.

Results

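The adipogenic transcription factors described here are PPARG and its nuclear receptor partners (Pparg, Rxra and Nr1h3), 3 C/EBP factors (Cebpa, Cebpb and Cebpd), 2 Krüppel-like factors (Klf5 and Klf4) and 2 early B-cell factors (Ebf1 and Ebf2). These 10 genes were taken by symbol from the 32285 genes of the expression matrices, and each symbol matched 1 gene. They were followed through single-cell RNA sequencing of 3T3-L1, a clonal mouse preadipocyte line that turns into fat cells in culture when given a hormone cocktail. The 5 groups had 1 library each: undifferentiated cells at day 0, cells at day 3 and day 6 of differentiation without polymer, and cells at day 3 and day 6 with P-G3, a polycationic dendrimer. Differentiated groups had received dexamethasone at 1 µM, IBMX at 0.5 mM and insulin at 10 µg/mL for induction, then insulin at 2.5 µg/mL for maintenance, and the treated groups also had P-G3 at 10 µg/mL.

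In preadipocytes, C/EBPβ and C/EBPδ are known as the first factors to answer the hormone cocktail, and they are known to switch on the genes for PPARγ and C/EBPα. PPARγ binds DNA as a heterodimer with RXRα and is required for fat cell formation, while C/EBPα sustains PPARγ expression and gives the cells their insulin sensitivity. LXRα (Nr1h3) shares the RXRα partner and senses oxysterols, KLF5 and KLF4 act early in the cascade, and the EBF factors mark and maintain the preadipocyte and adipocyte lineage.

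Depth allowed every factor to be counted in every library. Barcodes that passed the filters numbered 2468 to 3893 per library and held 88432894 to 179221992 unique molecular identifiers (UMIs, 1 per captured RNA molecule). Median UMIs per barcode ran from 16657.5 in the day 6 P-G3 library to 47503.5 at day 0, and 37.6% and 47.0% of the kept barcodes of the untreated and treated day 6 libraries held fewer than 10000 UMIs, against 0.872% to 5.65% in the other libraries. Library pairs shared 4 to 7 barcodes. Summed markers of other cell types were low, with macrophage markers at 2.37 to 3.89 CPM (UMIs per 1000000 UMIs of the library), endothelial markers at 0.479 to 1.36 CPM, bone and cartilage markers at 0.106 to 1.09 CPM and muscle markers at 4.21 to 29.1 CPM, of which Des made up 4.16 to 29.0 CPM. Epithelial markers summed to 0.0756 CPM at day 0 and 6.20 to 12.9 CPM in the differentiated libraries, mostly from Krt14 and Krt18, and their part in the results was not tested. By comparison, the 18 adipocyte markers summed to 180.7 CPM at day 0 and 36466 CPM at day 6 without polymer. With 1 library per group no difference between groups could be tested, and every interval below is an exact 95% interval that covers counting error only.

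Promoters of Pparg and Cebpa are shown because both genes are known to be C/EBP-driven and both were higher at each later day of differentiation here. RefSeq promoters of GRCm38.p6 were given for 7 of the 10 genes in 12 windows of 300 bases, 250 before and 50 after a transcription start. All windows were searched on both strands for the C/EBP motif TTGCNNAA, which 10.8% of 32851 promoter windows of that length held. Of the 12 windows, 1 held it, at the most downstream Pparg start, 60922 bases from the first and within the gene. The Cebpa window is shown beside it as one that held none. Each sequence is the 250 bases before the start, 5′ to 3′, on the + strand, with C/EBP matches in capitals.
Pparg downstream start, chr6:115421816-115422065: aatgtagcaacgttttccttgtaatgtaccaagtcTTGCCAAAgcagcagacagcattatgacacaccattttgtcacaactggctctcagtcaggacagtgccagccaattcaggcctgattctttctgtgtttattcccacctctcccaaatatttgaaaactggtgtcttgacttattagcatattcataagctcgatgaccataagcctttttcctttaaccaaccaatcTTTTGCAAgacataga
Cebpa start, chr7:35119043-35119292: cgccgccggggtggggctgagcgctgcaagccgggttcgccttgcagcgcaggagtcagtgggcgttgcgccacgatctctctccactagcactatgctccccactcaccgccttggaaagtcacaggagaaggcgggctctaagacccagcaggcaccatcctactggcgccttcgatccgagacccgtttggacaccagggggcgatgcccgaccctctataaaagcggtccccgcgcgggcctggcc
The 2 matches at the downstream Pparg start began 215 and 16 bases before it. GC content was 40.3% in that window and 80.3% at the first Pparg start, and the window lies in an intron of the longer Pparg transcripts. No match in the other windows says only that these letters are absent there. The KLF motif CCNCNCCC was in all 12 windows, 1 to 9 times each, and 49.5% of all windows held it. Of the other motifs searched, a PPAR-RXR repeat (GGTCANAGG, in 1.72% of all windows) was found once at the second Rxra start, an E-box (CACGTG, 7.15%) once at Klf4 and an EBF palindrome (CCCNNGGG, 13.7%) once at Cebpb. The cAMP response motif TGACGTCA (1.79%) and the paired glucocorticoid receptor half-sites ACANNNTGT (6.85%) were in none of the 12. Counting at the 3′ end of the RNA does not tell which Pparg start was used.

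Over the first 3 days of differentiation most of the factors were higher. Between day 0 and day 3 without polymer, 6 of the 10 were at least 2-fold higher (Pparg, Rxra, Nr1h3, Cebpa, Cebpd and Ebf2) and 1, Klf4, was at least 2-fold lower on the log2(CPM + 1) scale. Among the 9454 genes that reached 5 CPM in one or both libraries, 10.4% passed that fold, 6.4% upward and 3.99% downward. The median log2 ratio of the 10 factors was 1.52, against 0.08 over all genes. From day 3 to day 6 without polymer, 4 factors were at least 2-fold higher (Pparg, Nr1h3, Cebpa and Cebpb) and 1, Klf5, was lower, where 12.9% of 9583 genes passed the fold (6.97% higher, 5.92% lower). Over the whole 6 days the counts were 7 higher and 1 lower, with 26.9% of 9693 genes past the fold (16.2% higher, 10.7% lower). The day 3 and day 0 libraries each enter more than 1 of these comparisons.

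**Figure D1:**
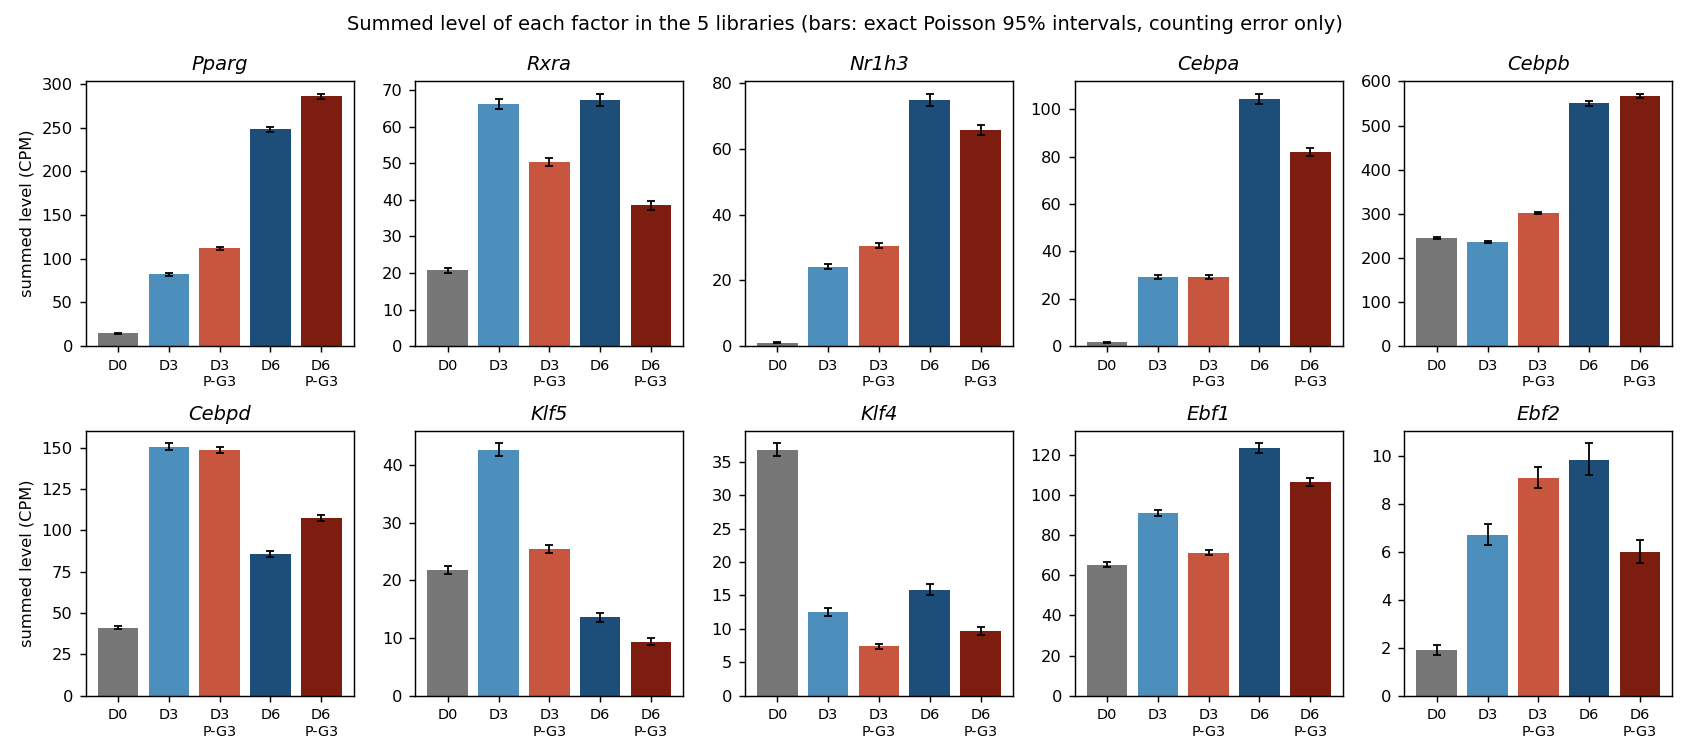
Summed level in CPM of each of the 10 factors (vertical axes, each from 0) in the 5 libraries, with exact Poisson 95% intervals as error bars. Pparg, Cebpa and Nr1h3 are higher at each later day, Cebpd and Klf5 peak on day 3, and Klf4 is highest on day 0.

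Gene positions are from the GENCODE annotation of GRCm38. Pparg (ENSMUSG00000000440, chr6:115360951-115490399, + strand), the master receptor of fat cell formation, had a summed level of 14.4 CPM on day 0 (13.8 to 15.0), 82.1 CPM on day 3 (80.6 to 83.6), 112 CPM on day 3 with P-G3 (110.5 to 113.6), 248 CPM on day 6 (244.7 to 251.3) and 286 CPM on day 6 with P-G3 (283 to 289). No 2 of these intervals overlapped, and the treated library was the higher one on both days. The log2 ratio was 1.58 from day 3 to day 6 without polymer and 1.34 with it. Of the 9490 genes compared, the 5 whose mean-centred log2(CPM + 1) profile over the 5 libraries lay nearest to that of Pparg were Trem2, Agpat2, Dgat1, Clstn3 and Ltc4s. Trem2, a lipid-binding receptor, was nearest with a distance of 0.1001 and a Pearson correlation of 1.000 over the 5 libraries, and went with levels of 0.775 CPM (day 0) and 27.2 CPM (day 6). Agpat2 and Dgat1, enzymes of triglyceride synthesis, reached 426 and 235 CPM on day 6.

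Rxra (ENSMUSG00000015846, chr2:27676440-27762957, + strand), the partner with which PPARγ binds DNA, was at 20.7 CPM on day 0 (20.001 to 21.4), 66.3 CPM on day 3 (65.0 to 67.7), 50.5 CPM on day 3 with P-G3 (49.4 to 51.5), 67.4 CPM on day 6 (65.7 to 69.1) and 38.5 CPM on day 6 with P-G3 (37.4 to 39.7). Its untreated levels on day 3 and day 6 overlapped, and both treated libraries lay below the untreated library of their day. While Pparg was higher again on day 6, the log2 ratio of Rxra from day 3 to day 6 was 0.02, and its sign differed among the 9 alternatives, between -0.12 and 0.08. Nr1h3 (ENSMUSG00000002108, chr2:91184061-91202834, - strand), the oxysterol receptor LXRα, was at 0.920 CPM on day 0 from 146 UMIs (0.777 to 1.08). Its level was 24.2 CPM on day 3 (23.4 to 25.0), 30.5 CPM on day 3 with P-G3 (29.7 to 31.3), 75.0 CPM on day 6 (73.2 to 76.8) and 65.8 CPM on day 6 with P-G3 (64.2 to 67.3). All 5 intervals were apart, and the treated library was higher on day 3 and lower on day 6, where TMM scaling (trimmed mean of M-values, a scaling by the bulk of genes) turned the log2 ratio from -0.19 to 0.15. From day 0 to day 3 the log2 ratio was 3.71 with the pseudocount of 1 CPM and 4.72 without it (4.48 to 4.97).

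Cebpa (ENSMUSG00000034957, chr7:35119293-35121928, + strand, a single-exon gene) encodes the factor that sustains the fat cell state together with PPARγ. Its level was 1.53 CPM on day 0 from 243 UMIs (1.34 to 1.74). It was at 29.2 CPM on day 3 (28.3 to 30.1), 29.0 CPM on day 3 with P-G3 (28.2 to 29.8), 104 CPM on day 6 (102.3 to 106.6) and 81.8 CPM on day 6 with P-G3 (80.1 to 83.5). The 2 day 3 libraries overlapped, while on day 6 the treated library was lower. Without a pseudocount the log2 ratio from day 0 to day 3 was 4.25 (4.06 to 4.44). The genes nearest to the Cebpa profile were Car5b, Pnpla2, Aldh6a1, Peg10 and Fam83a, at distances of 0.44 to 0.55. Pnpla2, the first lipase of fat breakdown, was at 10.8 CPM on day 0, 106 CPM on day 3 and 404 CPM on day 6.

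Cebpb (ENSMUSG00000056501, chr2:167688915-167690418, + strand, 1 exon), an early inducer of the cascade, was at 245 CPM on day 0 (242 to 247) and at 235 CPM on day 3 (233 to 238). It stood at 302 CPM on day 3 with P-G3 (299 to 304), 549.9 CPM on day 6 (545 to 555) and 568 CPM on day 6 with P-G3 (563 to 572). Day 3 without polymer was the lowest of the 5 libraries and the day 6 libraries the highest, with a log2 ratio of -0.06 from day 0 to day 3, which became 0.02 with the length trend described below removed, and 1.22 from day 3 to day 6. Cebpd (ENSMUSG00000071637, chr16:15887286-15891031, + strand, 1 exon), the other early inducer, was lower on day 6 than on day 3. Its level was 41.2 CPM on day 0 (40.2 to 42.2), 150.5 CPM on day 3 (148.5 to 152.6), 148.3 CPM on day 3 with P-G3 (146.6 to 150.1), 85.8 CPM on day 6 (83.9 to 87.8) and 107 CPM on day 6 with P-G3 (105.5 to 109.4). The day 3 libraries overlapped and were the highest, with a log2 ratio of 1.85 over day 0, and from day 3 to day 6 without polymer the log2 ratio was -0.80. Cebpb lies opposite Tmem189 and Cebpd opposite Spidr on the other strand, and strand use in the counting was not given in the sources used here.

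Klf5 (ENSMUSG00000005148, chr14:99298691-99315036, + strand), which is induced early and acts on the Pparg promoter, was at 21.8 CPM on day 0 (21.1 to 22.6), 42.6 CPM on day 3 (41.6 to 43.7), 25.4 CPM on day 3 with P-G3 (24.7 to 26.1), 13.6 CPM on day 6 (12.8 to 14.4) and 9.36 CPM on day 6 with P-G3 (8.79 to 9.96). The untreated day 3 library stood alone at the top. Klf4 (ENSMUSG00000003032, chr4:55527143-55532466, - strand), known to act within hours of induction, was highest on day 0 at 36.8 CPM (35.9 to 37.8). It was at 12.5 CPM on day 3 (12.0 to 13.1), 7.38 CPM on day 3 with P-G3 (6.99 to 7.79), 15.8 CPM on day 6 (15.0 to 16.7) and 9.66 CPM on day 6 with P-G3 (9.08 to 10.3). Both Krüppel-like factors were lower in the treated library on each day. The first sampled day after induction was day 3, so an earlier peak of either gene would not have been seen.

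Ebf1 (ENSMUSG00000057098, chr11:44617317-45008091, + strand), a lineage factor of preadipocytes, had the narrowest range of the 10, 1.89 times from lowest to highest, with 65.3 CPM on day 0 (64.0 to 66.5), 90.9 CPM on day 3 (89.4 to 92.5), 71.1 CPM on day 3 with P-G3 (69.9 to 72.4), 123 CPM on day 6 (120.9 to 125.5) and 106 CPM on day 6 with P-G3 (104 to 108). Day 0 was lowest and untreated day 6 highest, with no 2 intervals overlapping, but no step between sampled days without polymer reached 2-fold. Ebf2 (ENSMUSG00000022053, chr14:67233292-67430918, + strand) is known from brown and beige fat precursors. It had 1.90 CPM on day 0 (1.69 to 2.13), 6.73 CPM on day 3 (6.31 to 7.18), 9.11 CPM on day 3 with P-G3 (8.67 to 9.56), 9.87 CPM on day 6 (9.23 to 10.5) and 6.01 CPM on day 6 with P-G3 (5.56 to 6.50). The treated day 3 and untreated day 6 libraries overlapped, as did the untreated day 3 and treated day 6 libraries.

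With P-G3, none of the 10 factors differed 2-fold from the untreated library of the same day, in either direction, on day 3 or on day 6. Among all genes tested that fold was passed by 2.49% on day 3 (0.109% higher, 2.38% lower) and 4.22% on day 6 (0.109% higher, 4.12% lower). With scaling by total UMIs the median gene had a log2 ratio of -0.23 on day 3 and of -0.34 on day 6, whereas TMM scaling put it at -0.0024 and -0.02. Across genes the ratio was also lower for longer genes, with a Spearman correlation of -0.60 over 9215 genes on day 3 and -0.62 over 9137 genes on day 6. Ratios are therefore also given after the median ratio of genes of like length was removed, which for Nr1h3 gave 0.41 on day 3 and -0.04 on day 6 against 0.32 and -0.19.

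Pparg was higher with P-G3 on both days, by a log2 ratio of 0.44 on day 3 (0.42 to 0.48) and 0.20 on day 6 (0.18 to 0.23). After removal of the length trend these values were 0.53 and 0.35, and over all 9 alternatives they ranged from 0.43 to 0.71 on day 3 and from 0.16 to 0.59 on day 6. Klf5 and Klf4 were the lowest on day 3, at -0.73 (-0.80 to -0.69) and -0.69 (-0.87 to -0.66), and at -0.44 and -0.48 with the length trend removed. On day 6 they were at -0.49 and -0.66, and with the length trend removed at -0.07 and -0.31. Rxra had the lowest ratio on day 6, -0.79 (-0.86 to -0.75), and -0.25 with the length trend removed, while on day 3 it was -0.39 but 0.02 after that removal.

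**Figure D2:**
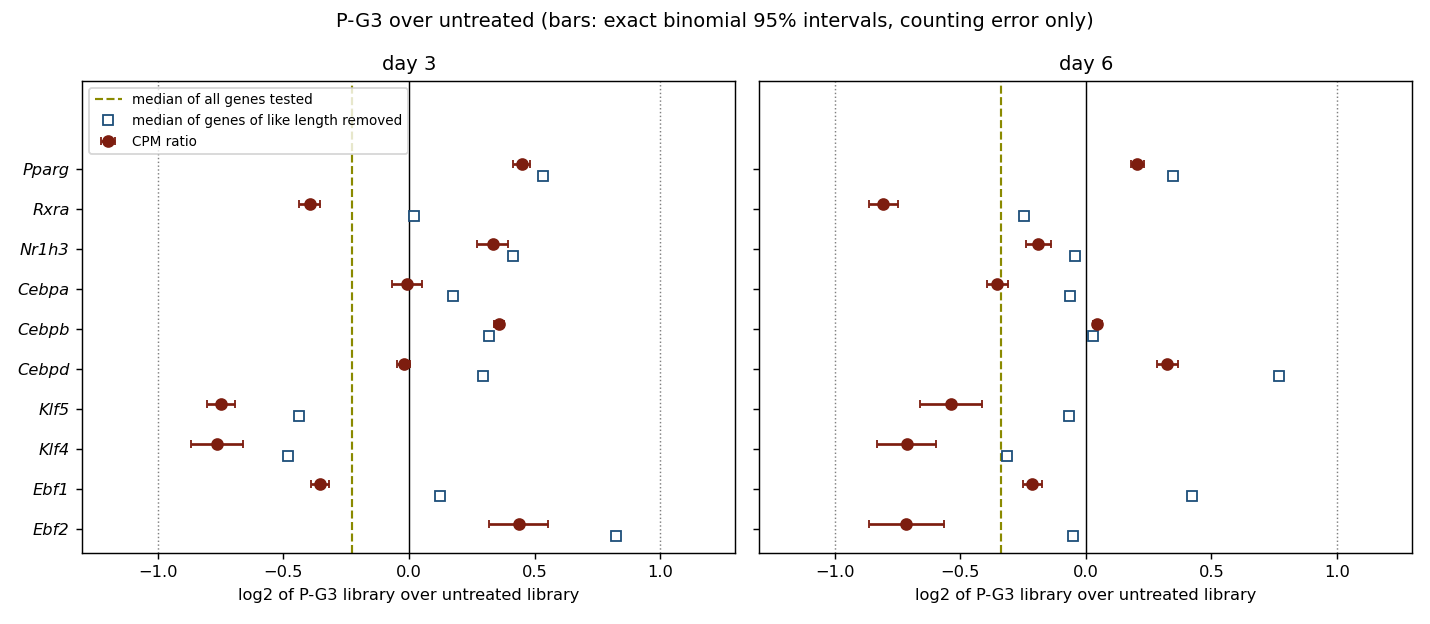
Log2 ratio of the P-G3 library over the untreated library on day 3 (left) and day 6 (right) for each factor. Filled circles are CPM ratios without a pseudocount with exact 95% intervals, open squares the ratio on the log2(CPM + 1) scale after the median of genes of like length was removed, and the dashed line the median of all genes tested. All circles lie between the dotted 2-fold lines, and Pparg lies right of 0 on both days by both measures.

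For the C/EBP factors the log2 ratios lay between -0.35 and 0.36. The log2 ratio of Cebpa was -0.01 on day 3 (-0.07 to 0.05) and 0.22 under TMM scaling, and on day 6 it was -0.35 (-0.40 to -0.31), -0.02 under TMM scaling and 0.05 as a mean of each cell's CPM. Cebpb had 0.36 on day 3 and 0.05 on day 6, and 0.32 and 0.03 with the length trend removed. Cebpd had -0.02 on day 3, which became 0.22 under TMM scaling and 0.29 with the length trend removed, and 0.32 on day 6, or 0.77 with that trend removed. Ebf1 was at -0.35 and -0.21, and its sign flipped with the length trend removed, to 0.13 and 0.42, and on day 6 also under TMM scaling, to 0.12. Ebf2 was at 0.39 (0.32 to 0.55) on day 3 and -0.63 (-0.86 to -0.57) on day 6, and at 0.82 and -0.05 with the length trend removed. From day 3 to day 6 under P-G3, 3 factors were at least 2-fold higher (Pparg, Nr1h3 and Cebpa) and Klf5 was lower, where 13.1% of 8987 genes passed the fold (6.04% higher, 7.08% lower). That comparison uses the same treated libraries as the ratios just given.

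A summed level cannot tell more cells with a gene from more RNA per cell, so detection was read in single cells thinned to 10000 UMIs. This kept 3182, 3393, 3675, 1541 and 1881 cells of the day 0, day 3, day 3 P-G3, day 6 and day 6 P-G3 libraries and left out 28, 203, 218, 927 and 1665 shallower ones. A UMI of Pparg was seen in 13.4% of cells on day 0, 44.4% on day 3, 52.9% on day 3 with P-G3, 80.5% on day 6 and 83.2% on day 6 with P-G3. Before thinning these shares were 46.8%, 74.5%, 82.3%, 75.6% and 72.0%, and the 2 day 6 libraries stood in the opposite order, at median depths of 34214.5 and 16657.5 UMIs. Cells with 3 to 5 Pparg UMIs made up 0.0943%, 6.01% and 29.7% of cells on day 0, day 3 and day 6 without polymer, and 9.09% of day 6 cells held more than 5.

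Cebpa was seen in 1.48% of cells on day 0, 15.2% on day 3, 15.5% on day 3 with P-G3, 44.9% on day 6 and 42.8% on day 6 with P-G3 (6.60%, 30.5%, 37.7%, 51.3% and 48.3% before thinning). For Nr1h3 the shares were 0.943%, 15.5%, 20.1%, 42.8% and 42.7% in that order, and 4.36%, 37.3%, 50.7%, 56.2% and 49.0% before thinning. Cebpb was seen in most cells throughout, from 82.6% on day 3 to 95.9% on day 6 with P-G3. Cebpd was seen most widely on day 3, in 67.6% of cells on day 3 and 66.7% with P-G3 against 27.8% on day 0, 48.4% on day 6 and 53.7% on day 6 with P-G3. Before thinning Cebpb was in 82.8% to 98.4% and Cebpd in 56.3% to 88.9% of cells. Klf5 was in 33.4% of untreated and 23.2% of treated day 3 cells (60.7% and 51.8% before thinning), and Klf4 in 26.1% of cells on day 0 and 11.5% on day 3 (61.5% and 26.6%). Rxra was in 46.9% of untreated and 37.1% of treated cells on day 3 and in 47.8% and 30.5% on day 6 (81.1%, 76.5%, 58.5% and 43.2% before thinning). Ebf1 ranged from 45.9% of day 0 to 65.7% of untreated day 6 cells, and Ebf2 from 1.79% to 9.21% (55.3% to 85.9% and 7.88% to 26.4% before thinning). The median cell held UMIs of 2 of the 10 factors on day 0, 4 on day 3 and 5 on day 6 without polymer, and 4 on day 6 with P-G3.

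In the 4 differentiated libraries Pparg and Cebpa were found together more often than the product of their single shares. Both were seen in 0.157% of day 0 cells, which is 5 of 3182 (0.0510% to 0.366%), 9.99% of day 3 cells (9.002% to 11.0%), 11.3% with P-G3 (10.3% to 12.3%), 40.4% of day 6 cells (37.9% to 42.9%) and 39.8% with P-G3 (37.5% to 42.0%). The product of the single shares within each library was 0.197%, 6.77%, 8.21%, 36.1% and 35.6%. Except at day 0 the share with both lay above the product, by 1.48 times on day 3, 1.37 times on day 3 with P-G3 and 1.12 times in each day 6 library. On day 3 Cebpa was in 22.5% of cells with Pparg and 9.44% of cells without it, and on day 6 in 50.2% and 23.3%. The treated and untreated shares with both overlapped on each day.

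Other pairs lay on either side of the product. Cebpa and Nr1h3 were together in 4.57% of day 3 cells, 1.93 times the product of 2.37%, and in 23.5% of day 6 cells, 1.22 times the product. Their Spearman correlation over these cells was 0.18 on day 3 and 0.20 on day 6. Cebpa fell short of the product with Cebpd on day 3, in 8.22% of cells against 10.3%, with Klf5 in 3.39% against 5.09%, and with Klf4 in 0.943% against 1.76%. With P-G3 on day 3 the same 3 pairs were at 0.77, 0.72 and 0.60 times the product. On day 6 without polymer the ratio to the product was 1.00 for Cebpd, 0.91 for Klf5 and 0.97 for Klf4, and the 95% interval of each share included the product. The Spearman correlation of Cebpa with Cebpd, Klf5 and Klf4 was -0.01, -0.02 and -0.02 in that library. With P-G3 on day 6 it was 0.01, 0.06 and -0.07. Pparg with Rxra lay close to the product in all differentiated libraries, at 1.02 to 1.06 times.

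**Figure D3:**
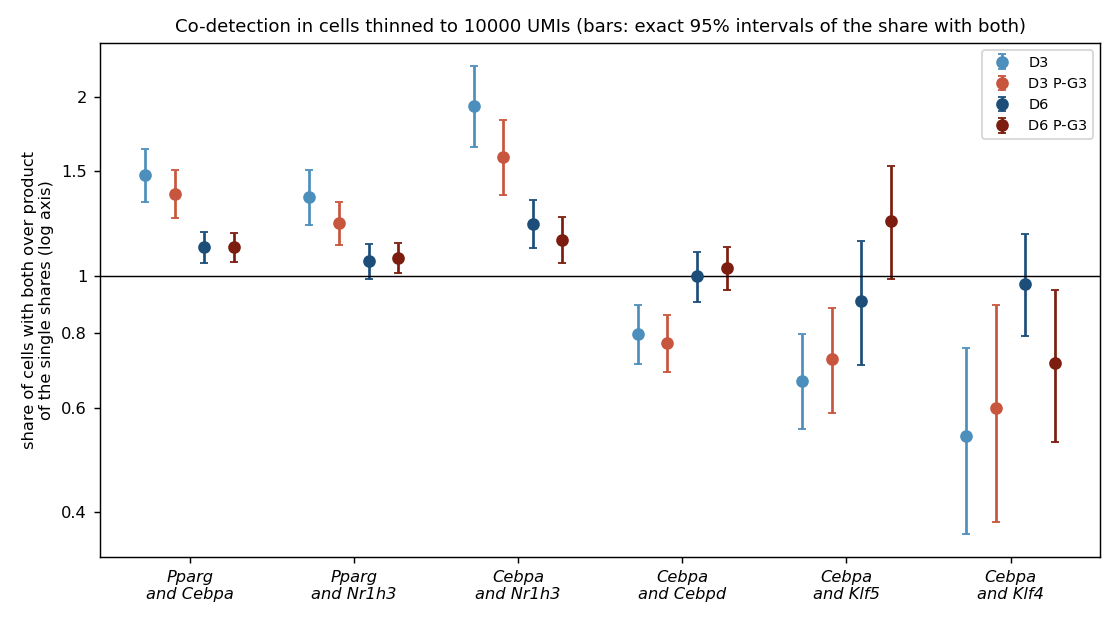
Share of cells with UMIs of both genes divided by the product of the 2 single shares (vertical log axis) for 6 pairs in the 4 differentiated libraries, in cells thinned to 10000 UMIs. Error bars are exact 95% intervals of the share with both, divided by the same product. Pairs of Pparg, Cebpa and Nr1h3 lie above 1 on day 3, and pairs of Cebpa with Cebpd, Klf5 and Klf4 lie below it.

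Cebpa and Nr1h3 were seen more often in cells with more Pparg UMIs. On day 3 without polymer Cebpa was seen in 9.44% of 1886 cells with no Pparg UMI, 16.4% of 908 cells with 1, 32.0% of 381 cells with 2 and 30.9% of 204 cells with 3 to 5. On day 6 without polymer the shares with Cebpa were 23.3%, 41.2%, 44.4%, 55.8% and, in 140 cells with over 5 Pparg UMIs, 65.7%. Nr1h3 was in 32.6% of day 6 cells with no Pparg UMI and 51.4% of those with over 5. Adipoq, the fat cell hormone adiponectin and a known PPARγ target, was in 5.25% of day 3 cells with no Pparg UMI and 26.0% of those with 3 to 5, and on day 6 in 41.5% of cells with none and 86.4% of cells with over 5. Klf5 ran the other way on day 3 without polymer, from 38.1% of cells with no Pparg UMI to 19.6% of cells with 3 to 5. With P-G3 on day 3 Klf5 was in 25.9% and 19.6% of such cells, and in 37.5% (18.8% to 59.4%) of 24 cells with over 5. For Cebpd on day 3 the shares with no Pparg UMI and with 3 to 5 were 69.8% and 61.8% without polymer, with overlapping intervals. With P-G3 they were 70.0% (67.8% to 72.2%) and 57.1% (51.7% to 62.3%), with intervals apart, and 41.7% (22.1% to 63.4%) with over 5. Between day 6 cells with no Pparg UMI and with over 5, the intervals of Klf5 (13.3% and 10.0%) and of Cebpd (48.2% and 55.7%) overlapped without polymer, while with P-G3 Klf5 was in 6.01% and 15.7%, with intervals apart. Cells of all classes were grouped here by their Pparg count, and cells of 1 library are not replicates.

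**Figure D4:**
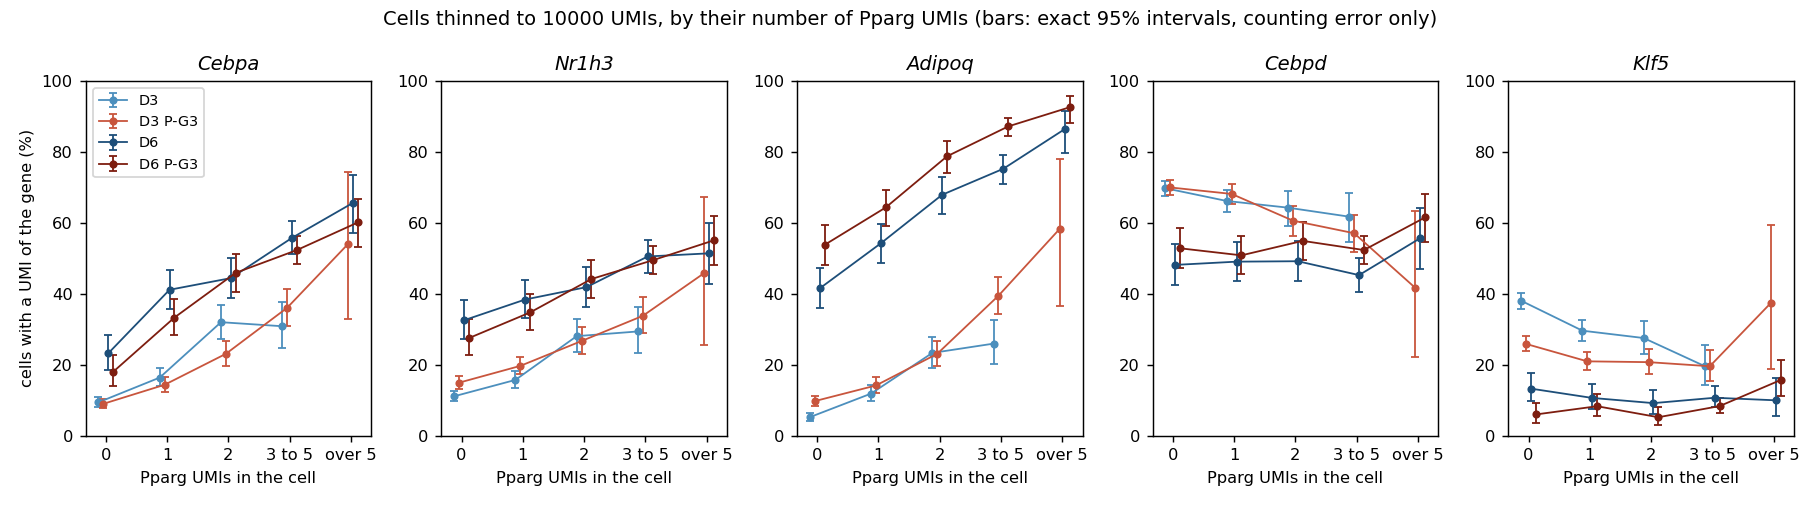
Share of cells with a UMI of Cebpa, Nr1h3, Adipoq, Cebpd or Klf5 (vertical axis, percent) by the number of Pparg UMIs in the cell (horizontal axis) in the 4 differentiated libraries thinned to 10000 UMIs, with exact 95% intervals and groups of under 20 cells left out. Cebpa, Nr1h3 and Adipoq are seen more often in the highest Pparg group than in cells without Pparg in each library, and Klf5 goes from 38.1% to 19.6% in the untreated day 3 library.

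Cells were also sorted into classes by clustering without the 10 factors, and levels were summed by class within each library. Adipocyte-like cells were mostly cluster 8 on day 3 (366 of 369 cells without and 491 of 496 with P-G3) and cluster 1 on day 6 (890 of 902 and 1314 of 1322). Preadipocyte-like cells were mostly cluster 3 on day 3 (1486 of 1552 and 218 of 229) and cluster 7 on day 6 (533 of 576 and 475 of 484). The name of cluster 7 rests on 3 markers. In thinned cells of day 6, Adipoq was seen in 17.9% and 27.7% of the preadipocyte-like class without and with P-G3. In adipocyte-like cells it was seen in 92.3% and 95.5%, at the same thinned depth. Before thinning, the median depths of these cells were 39748 and 37233.5 UMIs in the preadipocyte-like class. They were 63998.5 and 60596.5 UMIs in the adipocyte-like class. How much of the Adipoq share in preadipocyte-like cells came from free RNA was not tested. Cluster 5, which stayed unnamed, held 1232 of the treated and 228 of the untreated day 3 cells. On day 6, unnamed clusters low in UMIs held 932 of 2468 untreated (37.8%) and 1643 of 3546 treated barcodes (46.3%). These barcodes entered neither class. Most were in cluster 0 (824 untreated and 1542 treated), in which 9 adipocyte markers were at least 2-fold higher than in all other cells.

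On day 3 the factors lay on both sides. Without polymer 3 of the 10 were at least 2-fold higher in adipocyte-like than in preadipocyte-like cells (Cebpa, Nr1h3 and Pparg) and 3 were at least 2-fold lower (Cebpd, Klf5 and Klf4), where 9.71% of 9516 genes were higher and 14.2% lower. Cebpa stood at 107 CPM (103 to 112) against 7.47 CPM (6.69 to 8.32), a log2 ratio of 3.67. Nr1h3 stood at 66.7 against 10.4 CPM and Pparg at 189 against 54.6 CPM, log2 ratios of 2.58 and 1.77. Cebpd was at 59.7 against 223 CPM, Klf5 at 14.3 against 69.7 CPM and Klf4 at 4.88 against 18.9 CPM, log2 ratios of -1.88, -2.21 and -1.76. With P-G3 the same count was 3 higher and 3 lower, where 10.3% and 14.6% of 9337 genes passed, with log2 ratios of 3.00 for Cebpa, 2.28 for Nr1h3 and 1.69 for Pparg, and of -1.91 for Cebpd, -2.39 for Klf5 and -1.56 for Klf4.

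On day 6 the split was narrower. In the untreated library 2 factors were at least 2-fold higher in adipocyte-like cells (Cebpa and Nr1h3) and 1 lower (Ebf2), where 7.12% of 9538 genes were higher and 7.86% lower. Cebpa was at 137 CPM (134 to 140.1) against 35.3 CPM (32.95 to 37.8), Nr1h3 at 96.5 against 29.6 CPM, and Ebf2 at 6.87 against 18.05 CPM. Pparg was at 289.8 CPM (285.4 to 294.3) against 161 CPM (156 to 166), a log2 ratio of 0.85. Cebpd was at 84.9 against 94.2 CPM and Klf5 at 13.7 against 12.9 CPM, and the intervals of Klf5 overlapped. With P-G3 on day 6, 2 factors were higher (Cebpa and Nr1h3, log2 ratios of 2.15 and 1.37) and none lower, where 8.16% and 4.49% of 8713 genes passed. When the 10 factors were left in the clustering, the day 6 counts were 4 higher and 0 lower without polymer and 4 higher and 1 lower with it. On day 6 that setting left 53 untreated and 58 treated preadipocyte-like cells, against 576 and 484. It put 588 and 752 cells in unnamed clusters that were not low in UMIs, against 11 and 68. Unnamed clusters low in UMIs held 930 and 1644 day 6 barcodes in that setting, against 932 and 1643.

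**Figure D5:**
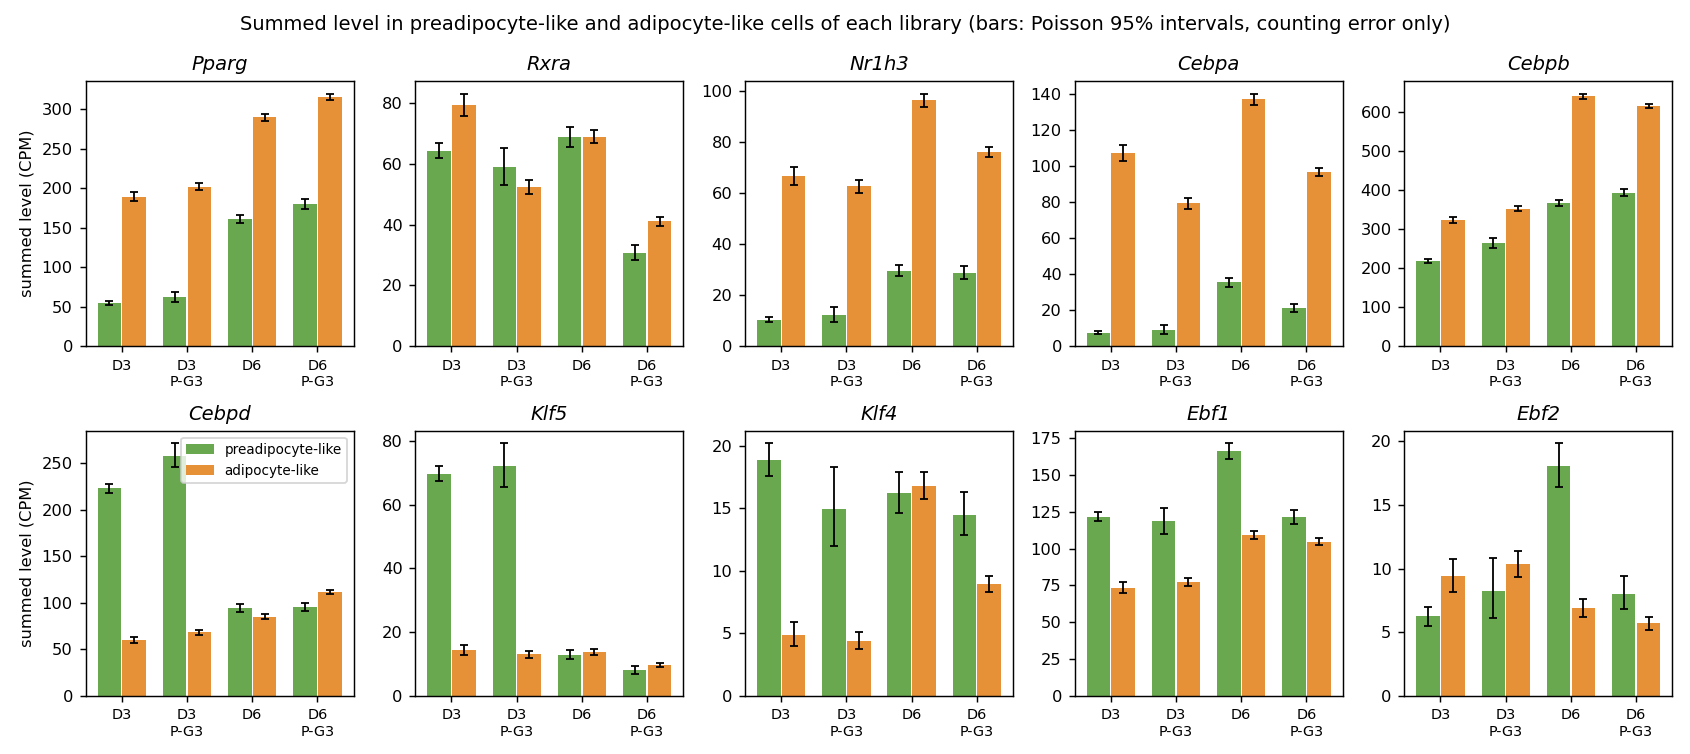
Summed level in CPM (vertical axes, each from 0) of each factor in preadipocyte-like (green) and adipocyte-like (orange) cells of the 4 differentiated libraries, with exact Poisson 95% intervals. Cebpd, Klf5 and Klf4 are higher in preadipocyte-like cells of both day 3 libraries, and Pparg, Nr1h3 and Cebpa are higher in adipocyte-like cells of all 4 libraries.

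Within each class Pparg was higher on day 6 than on day 3 without polymer, by a log2 ratio of 0.61 (0.57 to 0.67) in adipocyte-like and 1.54 (1.48 to 1.63) in preadipocyte-like cells. Cebpa had 0.35 (0.29 to 0.42) and 2.10 in these classes. Klf5 had -0.06 (-0.25 to 0.13) in adipocyte-like and -2.35 in preadipocyte-like cells. Different clusters hold each class on the 2 days. With the 10 factors left in the clustering, which left 53 preadipocyte-like cells on day 6, the values for preadipocyte-like cells were 0.12 for Pparg, 0.13 for Cebpa and -1.53 for Klf5. With P-G3, adipocyte-like cells differed from untreated ones of the same day by 0.10 (0.04 to 0.15) for Pparg on day 3 and 0.12 (0.10 to 0.15) on day 6. For Cebpa the same comparison gave -0.43 (-0.52 to -0.36) and -0.50 (-0.55 to -0.46), and for Rxra -0.59 (-0.69 to -0.50) and -0.73 (-0.81 to -0.68). Over whole libraries the median ratio of genes of like length was -0.18 and -0.29 for Cebpa and -0.41 and -0.54 for Rxra. Class ratios of P-G3 over untreated, here and below, were scaled by total UMIs only, without removal of the length trend. Klf5 was at -0.13 (-0.35 to 0.06) on day 3 in adipocyte-like cells. In preadipocyte-like cells of day 3 its value depended on the clustering. It was 0.05 (-0.10 to 0.19) from 229 treated cells, -0.39 (-0.49 to -0.30) from 862 treated cells at a clustering resolution of 2 and -0.70 (-0.79 to -0.64) from 1927 treated cells at a resolution of 0.5. In dividing-like cells of day 3 (999 without and 1183 with P-G3) Klf5 was at -0.64 (-0.76 to -0.56), and Pparg at 0.43 (0.37 to 0.51).

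Other genes of the cascade gave a background for these levels. Of 19 coactivators, corepressors and related receptors, 15 were tested between day 0 and day 3 and 4 were at least 2-fold higher and none lower, where 6.4% of all genes tested were higher and 3.99% lower. Their median log2 ratio was 0.45. On day 0, day 3 and day 6 without polymer the coactivator Ncoa1 was at 9.12, 35.9 and 85.2 CPM. The corepressor Nrip1 was at 16.5, 76.9 and 138.5 CPM, and the coactivator Ppargc1b at 2.43, 14.3 and 31.4 CPM. Ppard, a related receptor, was the remaining one past 2-fold by day 3, at 10.2, 21.5 and 32.6 CPM. The corepressor Ncor1 was at 120.3, 163 and 186 CPM. With P-G3 none of these genes passed 2-fold on either day, where 2.49% and 4.22% of all genes did, with medians of -0.43 and -0.62 that became 0.02 and -0.02 with the length trend removed.

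Among the other C/EBP genes, Cebpg was at 51.9, 90.6 and 168 CPM on day 0, day 3 and day 6 without polymer. Ddit3, which encodes the stress-induced C/EBP homologous protein CHOP, was at 81.0, 30.1 and 284 CPM, lowest on day 3, and at 34.2 and 291 CPM in the treated libraries. Cebpz was between 78.4 and 91.0 CPM in all 5 libraries. Of the other Krüppel-like genes, Klf9 was at 51.0, 177 and 255 CPM, Klf15 at 0.0189, 2.23 and 39.4 CPM and Klf2 at 26.7, 17.8 and 8.59 CPM on these days. From day 0 to day 6 the 9 tested genes of that family held 3 at least 2-fold higher and 1 lower, and the 3 tested C/EBP genes 2 higher and none lower, where 16.2% of all genes tested were higher and 10.7% lower. Ebf3 was at 10.5, 8.03 and 5.65 CPM.

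Most listed PPARγ targets were higher at each later day without polymer. Of 29 tested between day 0 and day 3, 21 were at least 2-fold higher and none lower, and from day 3 to day 6 it was 23 of 31 and none lower. Of all genes tested, 6.4% were higher and 3.99% lower over the first interval and 6.97% and 5.92% over the second. Fabp4, the fatty acid binding protein of fat cells, was at 30.4, 6964 and 22929 CPM, and G0s2, a lipase inhibitor, at 0.485, 409.5 and 1986 CPM on day 0, day 3 and day 6. Of the listed C/EBPα targets, 11 of 15 were higher and 1, Saa3, lower from day 3 to day 6, with Scd1, the stearoyl-CoA desaturase, at 121 and 3210.3 CPM. Of the listed LXR targets, 8 of 13 were higher and 2 lower from day 0 to day 3, and 7 of 13 higher and none lower from day 3 to day 6. Those lower by day 3 were Pltp, a phospholipid transfer protein (37.5 against 6.58 CPM), and Arl4c, a small GTPase (18.7 against 2.69 CPM). Among the higher ones was Abca1, the cholesterol exporter, at 0.863, 25.9 and 73.8 CPM on the 3 untreated days. Several of these targets sit in more than 1 list. With P-G3, 2 of 29 tested PPARγ targets were at least 2-fold higher on day 3 and none of 31 on day 6, with none lower on either day. The 2 were Hsd11b1, which activates glucocorticoids (49.4 against 22.1 CPM), and G0s2 (880.4 against 409.5 CPM). Below 2-fold, 19 of the 31 were lower on day 6 and 12 higher. Of 14 tested C/EBPα targets, 1 was higher (Hsd11b1) and 1 lower on day 3, and 2 were lower on day 6. Col1a1 was lower on both days (174 against 468 CPM and 168 against 506 CPM). Scd1 was at least 2-fold lower on day 6 (1561 against 3210.3 CPM), with a log2 ratio of -1.04. Among LXR targets only Scd1 passed the fold, 1 of 13 tested on day 6 and none of 12 on day 3. Of all genes tested, 0.109% were higher on each day, and 2.38% on day 3 and 4.12% on day 6 were lower. Scd1 has a length of 4832 bases, and genes of like length to Rxra (4905 bases) had a median of -0.54 on day 6.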

How the data were processed

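Single-cell RNA sequencing libraries of 5 groups, 1 library each, were read from the filtered gene by barcode matrices that the authors deposited, whose values are UMI counts. The submitters' processing notes name Cell Ranger 3.1.0 and GRCm38, and the matrix headers name Cell Ranger 5.0.1. Strand use in counting is not given in the sources used here. Barcodes with at least 500 genes and at most 20% mitochondrial UMIs were kept (2468 to 3893 per library). Counts were summed per library and divided by all kept UMIs (CPM, counts per 1000000 UMIs). Log2 ratios used a pseudocount of 1 CPM, and genes that reached 5 CPM in one or both libraries entered a comparison. Intervals of ratios carry no pseudocount. TMM (edgeR 4.0.16) and median-of-ratios (DESeq2 1.42.0) factors served only as scaling alternatives. The length trend was the median ratio in 20 bins of gene length.

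Detection used cells thinned once to 10000 UMIs. Clusters came from 2000 variable genes without the 10 factors, 30 components, 20 neighbours and Leiden resolution 1 (leidenalg 0.10.2, igraph 0.11.9). A cluster was named from at least 3 markers. It stayed unnamed where classes tied or another class had more markers among its 10 top genes. Clusters with median UMIs far below those of their libraries also stayed unnamed if their class had no marker among these genes. Cluster 0, with 9 adipocyte markers, was one of these, and cluster 6 tied at 10 preadipocyte and 10 dividing markers. No doublet caller was run, and an alternative left out the 5% of barcodes with most UMIs. The members and gene lists were chosen with earlier results of these data known. The named genes were the 10 factors, relatives and partners with at least 5 CPM, the listed genes with the largest ratios, and the 5 nearest profiles. The scripts were tested on simulated data.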

Additional observations from a re-analysis of the deposited data

Results flagged for a closer look

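For 2 factors the P-G3 library lay on opposite sides of its untreated library on the 2 days, with both counting intervals clear of 0. The difference between the days was not tested, since each group has 1 library. Nr1h3 had a log2 ratio of 0.32 on day 3 and -0.19 on day 6, and under TMM scaling 0.55 and 0.15, so the opposite signs were seen with scaling by total UMIs but not with TMM. Ebf2 had 0.39 on day 3 and -0.63 on day 6, and with the length trend removed 0.82 and -0.05. The same 4 Ebf2 values give a day 6 over day 3 log2 ratio of 0.49 without polymer and -0.53 with P-G3. Ebf2 rests on 646 to 1633 UMIs in each of these libraries.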

How the results depend on the processing

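No paired analysis was possible because each group has 1 library and no result comes from a test. Recomputed values numbered 189 for the counts of factors past 2-fold, the shares of cells with both Pparg and Cebpa and the class counts. Of these, 167 stayed within their counting interval or 1.5 times the count and 22 moved. Counts and shares carry no sign, so no reversal could be recorded for them. The share with both Pparg and Cebpa follows the depth at which cells are read. In the order day 0, day 3, day 3 P-G3, day 6 and day 6 P-G3 it was 0%, 0.307%, 0.515%, 2.40% and 2.66% of cells thinned to 1000 UMIs, 0.778%, 18.8%, 21.6%, 60.3% and 56.7% of cells thinned to 20000 UMIs, and 2.80%, 27.1%, 35.6%, 49.0% and 44.4% without thinning. Without the 5% of barcodes with most UMIs it was 8.87% on day 3 and 37.1% on day 6 with P-G3, and a second random thinning gave 37.5% on day 6 with P-G3. With the 10 factors left in the clustering, 4 factors were at least 2-fold higher and 0 lower in adipocyte-like cells of the untreated day 6 library, and 4 higher and 1 lower with P-G3. That setting compares a smaller class, 53 and 58 preadipocyte-like cells against 576 and 484. Of 700 recomputed ratios of single factors, 386 stayed within their counting interval and 314 moved past it. Culture-to-culture spread could not be measured with 1 library per group.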

Other observations

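Listed inducers that act before or beside the 10 factors moved in both directions after induction. Of 16 tested between day 0 and day 3, 6 were at least 2-fold higher and 1, Jun, was lower (112 against 43.4 CPM), where 6.4% of all genes tested were higher and 3.99% lower. Zbtb16, a zinc finger factor known to answer glucocorticoids, was at 0.428 CPM on day 0, 38.8 CPM on day 3, 20.8 CPM on day 3 with P-G3, 25.9 CPM on day 6 and 9.74 CPM on day 6 with P-G3. Srebf1, a driver of lipid synthesis, was at 4.63 CPM on day 0, 22.1 CPM on day 3 and 27.2 CPM on day 6. With P-G3, 1 of 16 tested inducers was at least 2-fold lower on day 3 and 3 of 17 on day 6, and none was higher. Of all genes tested, 2.38% and 4.12% were lower and 0.109% higher on each day. Fos was lower on both days, at 6.76 against 17.7 CPM and 6.84 against 18.2 CPM. Zbtb16 and Egr2 (3.80 against 9.16 CPM) were lower on day 6. The median log2 ratio of the tested inducers was -0.48 and -0.68, and -0.08 and -0.15 with the length trend removed.

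Of 20 listed anti-adipogenic genes tested between day 0 and day 6, 9 were at least 2-fold lower and 1, Foxo1, was higher (6.04 against 35.8 CPM), where 16.2% of all genes tested were higher and 10.7% lower. Dlk1, the preadipocyte surface factor, was at 2125 CPM on day 0, 547 CPM on day 3 and 342 CPM on day 6, and Id2, an inhibitor of helix-loop-helix factors, at 37.9, 28.2 and 2.04 CPM. With P-G3, 3 of 20 were at least 2-fold lower on day 3 and 3 of 17 on day 6, where 2.38% and 4.12% of all genes were lower and 0.109% higher on each day. Their median log2 ratio was -0.50 on day 3 and -0.51 on day 6, and -0.13 and -0.22 with the length trend removed. The 16 preadipocyte markers summed to 4637 CPM on day 3 and 2435 CPM with P-G3, and to 3305 CPM on day 6 and 1637 CPM with P-G3. The median log2 ratio of those tested was -0.86 and -1.11 on the 2 days, and -0.57 and -0.83 with the length trend removed. The 12 markers of dividing cells summed to 1281 and 1343 CPM on day 3 and to 204 and 202 CPM on day 6.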
